A study of Mus musculus with 8 samples.

Results

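The genes of the major histocompatibility complex (MHC) and of antigen processing were examined in intestinal crypts with and without Mex3a. The members were chosen by name, as the protein-coding genes whose symbol starts with H2- (34 genes) and 14 further genes added by symbol (Psmb8, Psmb9, Psmb10, Psme1, Psme2, Tap1, Tap2, Tapbp, Tapbpl, B2m, Erap1, Nlrc5, Ciita and Cd74). This gave 48 of the 55114 genes in the deposited table. The group was proposed with the KO against control values in view, so these values selected the theme, and the differences between genotypes are given as a description. Crypts, the pockets that hold the intestinal stem cells, were isolated with EDTA, and total RNA was sequenced from 4 mice lacking Mex3a (KO) and 4 of their littermates as controls (labelled Ctrl). All mice were 8 weeks old and of the C57BL/6 strain. The KO is constitutive, with a deletion that takes the first exon and part of the next, so every cell type in the crypt fraction lacks the gene, including any immune cells that came with it. In bulk RNA, fewer cells of a type and less RNA per cell cannot be told apart.

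MHC class I molecules pair a heavy chain with B2m and show peptides made inside the cell to CD8 T cells. The peptides are cut by the immunoproteasome, pumped into the endoplasmic reticulum by the TAP transporter and loaded with the help of tapasin. MHC class II molecules pair an alpha with a beta chain around the invariant chain Cd74, and show peptides taken up from outside to CD4 T cells. Class II belongs mainly to dendritic cells, macrophages and B cells, but intestinal epithelial cells can also make it, and interferon gamma raises both classes through the transactivators CIITA and NLRC5.

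The labels were checked with Mex3a itself, on chromosome 3. Its read count was 269, 236, 327 and 328 in control replicates 1 to 4, whereas KO replicates 1 to 4 had 20, 28, 6 and 8. The log2 fold change was -4.43 with a standard error (SE) of 0.43 (edgeR's quasi-likelihood test, adjusted p = 0.0310). It was the only gene with an adjusted p under 0.05 among the 16109 tested, or 0.00621% of them. Control libraries held 20324184 to 24726221 counts on genes and KO libraries 23489180 to 30654105. Values per mouse are given as CPM, counts scaled to library size after TMM normalization, and levels are compared between genes only as FPKM, which divides by gene length. Replicates 1 and 2 of both genotypes carried 1073 to 1655 counts of the Y-linked gene Ddx3y, while replicates 3 and 4 carried 0 counts of it and 36964 to 50562 of Xist. The labels do not give the sex, and no comparison was split by it. Epithelial genes dominated the crypts: the 12 epithelial markers summed to 13850 to 15320 CPM in the controls and 14840 to 16320 in KO.

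Of the 48 members, 36 passed edgeR's filter on low counts. The 12 others were 11 class I genes and H2-Ke6, which despite its name is a steroid dehydrogenase gene. The 11 were H2-M2, H2-M5 and a group known from vomeronasal neurons (H2-M1, H2-M9, H2-M11 and the 6 H2-M10 genes). Of these 12, 7 had 0 counts in every mouse, and the highest count of the other 5 was 16, for H2-M2. H2-Ke6 shared 41.2% of its 100-base windows with the gene model Gm20427, which spans nearly all of it on the same strand, so its count of 0 to 5 per mouse is uncertain. All class II chains, Cd74, B2m and the processing genes passed.

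Elements that CIITA, NLRC5 and interferon act through lie in MHC promoters. Promoter windows are shown for the class II genes in which an X box or CREB motif was followed closely by a Y box core. For the classical class I genes the window shown holds a kappa B and an interferon motif. The Y box core of these class I promoters lies outside it. The sequences are RefSeq's, on GRCm38.p6, 5′ to 3′ on the gene's strand. In the class II windows the capitals mark AACNNNTGA, letters found in the X box, or TGACGT, the core of the element bound by CREB, followed by ATTGG, the core of the Y box bound by NF-Y. The windows lie at chr17:34287865-34287903 on the minus strand (H2-Aa), chr17:34305772-34305814 (H2-Eb1), chr17:34153093-34153136 (H2-DMb1), chr17:34145122-34145165 (H2-DMb2) and chr17:34238814-34238854 (H2-Ob), the last 4 on the plus strand. Each ends between 84 and 42 bases before the RefSeq start used by the promoter table. The deposited gene spans of H2-DMb1 and H2-DMb2 begin further upstream, so these windows lie within them.
H2-Aa: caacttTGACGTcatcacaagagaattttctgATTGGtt
H2-Eb1: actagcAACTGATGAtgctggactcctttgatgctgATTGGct
H2-DMb1: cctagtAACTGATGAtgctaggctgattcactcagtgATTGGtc
H2-DMb2: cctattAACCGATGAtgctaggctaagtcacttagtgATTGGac
H2-Ob: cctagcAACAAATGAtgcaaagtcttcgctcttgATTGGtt

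In the windows of the classical class I genes, the capitals mark GGGGATTCC, letters of a kappa B element, and TTTCNNTT, letters of an interferon response element. They lie at chr17:34000426-34000462 on the minus strand (H2-K1) and chr17:35262919-35262955 on the plus strand (H2-D1), and 36 of their 37 bases are identical. The window of H2-D1 lies within its deposited gene span, which begins further upstream, and that of H2-K1 lies outside its span. The 1 difference is A22T, counted from the first base printed, with the base of H2-K1 first and that of H2-D1 last.
H2-K1: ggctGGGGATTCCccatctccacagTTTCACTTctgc
H2-D1: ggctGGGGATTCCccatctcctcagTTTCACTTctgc

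A promoter sequence, from 250 bases before to 50 after the start, was held for 40 members, all but H2-Ab1, H2-Q1, H2-T24, Tap2, Nlrc5, Ciita, Cd74 and Tapbpl. On either strand, ATTGG was in all 8 class II promoters held and in 37.4% of all 32851 promoters of the same length, and AACNNNTGA was in 4 of the 8 and in 11.9% of all. Of the 11 class I heavy chain promoters held whose genes passed the filter, 9 had ATTGG, H2-K1 and H2-D1 among them, and 1 had AACNNNTGA (H2-Q10). GGGGATTCC was in 4 of these 11 class I promoters (H2-K1, H2-D1, H2-Q6 and H2-Q7), in 0 of the 8 class II promoters and in 0.25% of all. TTTCNNTT was in all 11 of these class I promoters, in 4 of the 8 class II promoters (H2-Aa, H2-DMa, H2-Eb2 and H2-Oa) and in 23.9% of all. TGACGT was in 1 of the 8 class II promoters (H2-Aa), in 3 of the 11 class I promoters (H2-Q4, H2-Q7 and H2-T22) and in 7.51% of all. The motifs marked in each window do not overlap, and a match is a description of the letters and no evidence of binding.

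All 36 members that passed had a positive log2 fold change of KO over Ctrl, from 0.045 (Erap1) to 1.23 (H2-Q1), with a median of 0.32 against -0.016 over all genes tested. For 11 of the 36 the SE was larger than the fold change. With edgeR's quasi-likelihood test, 10 members had an unadjusted p under 0.05, all higher in KO. Among all genes tested 5.33% passed that threshold as higher and 3.05% as lower. Since the KO values chose the theme, nothing is read from the count. The adjusted p was under 0.05 for 0 members in edgeR (lowest 0.545, for H2-Aa) and for 0 members in DESeq2, which called 0.577% of all genes. In DESeq2, 8 members had an unadjusted p under 0.05, all higher, as had 6.1% of all genes. With the replicate number as a block, 14 members passed the unadjusted threshold as higher against 7.14% of all genes, and 0 the adjusted one. The block added H2-Q1, H2-Q2, H2-T22, H2-T23 and H2-T3 and lost H2-DMb1.
The count rested on single mice. It was 1 without control replicate 1 (Cd74), 2 without control replicate 2 (H2-DMb2 and H2-Q10), 2 without control replicate 3 (H2-K1 and H2-T24), 19 without control replicate 4, 1 without KO replicate 2 (H2-Ob) and 5 without KO replicate 3. In no member did every KO mouse lie above every control, which held for 2.17% of all genes tested. The lowest of the 8 mice was a control for 35 members, of which 22 fell to control replicate 1 and 11 to control replicate 2. The highest was a KO mouse for 27. The shares of all genes were not computed for these, so nothing is read from them.

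**Figure D1:**
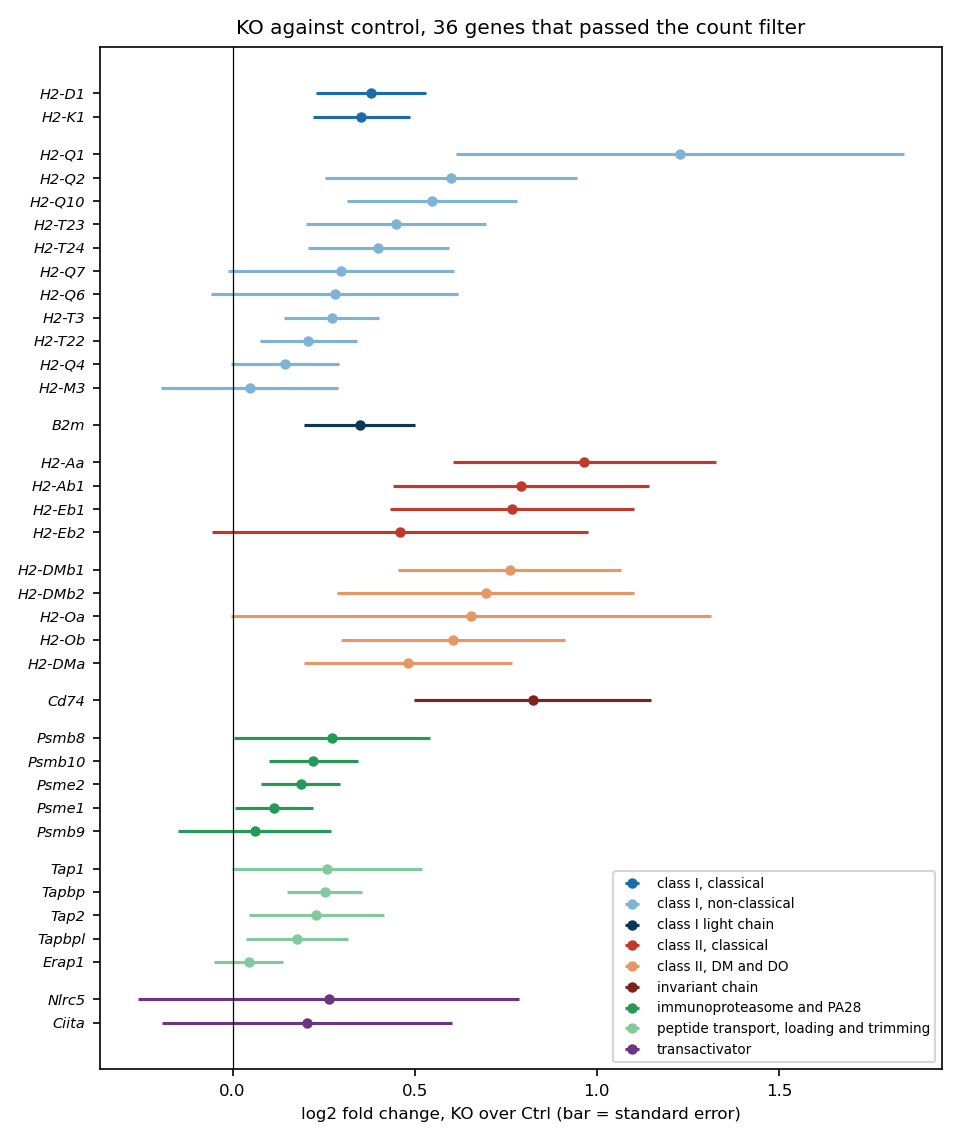
The log2 fold change of KO over Ctrl (horizontal axis) is plotted for the 36 genes that passed the filter, as points with bars of 1 standard error from edgeR, coloured by class. All points lie right of 0, the class II chains and Cd74 between 0.46 and 0.97 and the immunoproteasome and PA28 genes between 0.061 and 0.27.

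The classical class I heavy chains, which present peptides to CD8 T cells, had the highest FPKM of the H2- genes. H2-K1 (chromosome 17, 33996017 to 34000333 on GRCm38) had 485, 527, 623 and 729.7 CPM in control replicates 1 to 4 and 682, 785, 822 and 732 in KO replicates 1 to 4. H2-D1 (35262730 to 35267499) had 331, 379, 416 and 528 CPM in the controls and 444.5, 604, 557 and 548 in KO. For both genes 3 of the 4 KO mice lay above the highest control, and the exception was KO replicate 1. The log2 fold changes were 0.35 (SE 0.13) for H2-K1 and 0.38 (SE 0.15) for H2-D1, a ratio of 1.28 and 1.30.
B2m, the light chain they share with all class I molecules, had 345, 463, 465 and 559 CPM in the controls and 490.4, 652, 645 and 546 in KO, and only 2 KO mice exceeded the highest control. Its log2 fold change was 0.35 (SE 0.15). B2m lies wholly within the span of Patl2 on the opposite strand, and whether the counting used strand is not given in the sources used here.
Per length, H2-K1 and H2-D1 supplied 67.4% to 74.0% of the summed heavy chain FPKM in the controls and 64.2% to 73.4% in KO. B2m stood at 0.895 to 1.14 FPKM per FPKM of heavy chain in the controls and 0.869 to 1.04 in KO, so the ranges of the genotypes overlapped.

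Of the 22 non-classical class I genes, 11 passed the filter. H2-Q1 had 7.99, 4.72, 9.67 and 25.8 CPM in the controls and 9.70, 16.4, 55.5 and 31.6 in KO. H2-Q2 had 76.0, 65.0, 101.0 and 161 CPM in the controls and 92.8, 113, 242.5 and 162 in KO. Both were highest in KO replicate 3, and control replicate 4 lay above KO replicates 1 and 2. Their log2 fold changes were 1.23 (SE 0.61) and 0.60 (SE 0.35), and they lay between 0.67 and 1.92 for H2-Q1 and between 0.29 and 0.92 for H2-Q2 when single mice were left out, lowest in both without KO replicate 3.
H2-T23, which encodes Qa-1, a ligand of the NKG2A receptor, had 83.7, 74.0, 104 and 158.5 CPM in the controls and 102, 134, 174 and 164 in KO (log2 fold change 0.45, SE 0.25). H2-T3, the gene of the thymus leukemia antigen that intestinal epithelium is known to make and that binds CD8 alpha homodimers, had 94.2, 83.8, 107 and 112 CPM in the controls and 102, 110.4, 147 and 120.1 in KO. Its log2 fold change was 0.27 (SE 0.13). H2-T3 and H2-T23, like H2-Q1 and H2-Q2, were highest in KO replicate 3.
H2-Q10, known as a secreted class I molecule of the liver, differed in its pattern. It had 4.39, 4.81, 4.05 and 3.76 CPM in the controls and 8.73, 6.91, 4.59 and 4.66 in KO, so that only KO replicates 1 and 2 exceeded the highest control (log2 fold change 0.55, SE 0.23). The other non-classical genes were H2-T24 (0.40, SE 0.19), H2-Q7 and H2-Q6, which encode Qa-2 (0.30, SE 0.31, and 0.28, SE 0.34), H2-T22, a ligand of some gamma delta T cells (0.21, SE 0.13), H2-Q4 (0.14, SE 0.15) and H2-M3, which presents formylated peptides (0.047, SE 0.24). Without control replicate 1, H2-Q7 had 0.087 and H2-Q6 0.040.
Over the 13 heavy chains that passed, 3 had an unadjusted p under 0.05 (H2-K1, H2-D1 and H2-Q10), all higher, against 5.33% of all genes, and the median log2 fold change was 0.35. With the replicate block 8 of the 13 were under it, against 7.14% of all genes. In 8 of the 13 the KO mouse was above the control of the same number in all 4 pairs, which held for 10.3% of all genes tested. Reads of these genes can fall on near-identical copies: H2-Q7 shared 16.4%, H2-T22 14.2%, H2-Q1 13.1%, H2-Q6 10.8%, H2-T23 7.28%, H2-D1 4.64% and H2-K1 0% of its 100-base windows with other genes. The values of the first 4 are therefore uncertain. H2-T22, H2-T23 and H2-T24 also overlap the antisense gene A930015D03Rik.

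The classical class II chains varied widely between mice in both genotypes. H2-Aa (34282744 to 34287827), the alpha chain of the A molecule, had 36.4, 39.99, 49.95 and 105 CPM in the controls and 97.9, 177, 86.1 and 90.7 in KO. H2-Ab1 (34263209 to 34269418), its beta chain, had 61.9, 79.2, 113 and 196 CPM in the controls and 170.5, 290.3, 168 and 150.2 in KO. H2-Eb1 (34305877 to 34316199), the beta chain of the E molecule, had 43.0, 54.9, 70.4 and 125.5 CPM in the controls and 114.5, 188.5, 102 and 95.5 in KO.
The 3 genes shared 1 pattern. Every KO mouse lay above control replicates 1, 2 and 3, control replicate 4 reached the level of the KO mice, and KO replicate 2 alone lay above all controls. The log2 fold changes were 0.97 (SE 0.36) for H2-Aa, 0.79 (SE 0.35) for H2-Ab1 and 0.77 (SE 0.34) for H2-Eb1. H2-Ab1 stood at 1.95 to 2.58 times the FPKM of H2-Aa in the controls and 1.88 to 2.23 times in KO, while H2-Aa itself ranged from 36.4 to 177 CPM. H2-Eb1 has no partner here, as C57BL/6 carries H2-Ea as a pseudogene, and the annotated H2-Ea-ps had 1 count in KO replicate 2 and 0 in the other 7 mice.
Cd74, the invariant chain that occupies the groove until peptide is loaded, had 153, 316, 327 and 455 CPM in the controls and 456, 849, 483 and 425.5 in KO. KO replicate 2 was again highest and control replicate 1 lowest, and 3 KO mice lay above the highest control, although KO replicate 1 barely did so. Its log2 fold change was 0.82 (SE 0.32). Per length, Cd74 stood at 0.962 to 1.61 FPKM per FPKM of all class II chains in the controls and 1.09 to 1.24 in KO.

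The genes that edit class II peptides had lower levels per length than H2-Aa, H2-Ab1 and H2-Eb1. Over the 8 mice the mean was 19.8 FPKM for H2-DMa and 15.8 FPKM for H2-DMb1, against 45.3 FPKM for H2-Aa, 93.5 for H2-Ab1 and 83.5 for H2-Eb1. H2-DMb1 had 11.9, 12.9, 18.1 and 27.0 CPM in the controls and 28.2, 45.2, 22.9 and 22.1 in KO (log2 fold change 0.76, SE 0.31). Its partner H2-DMa had 16.3, 20.5, 28.3 and 43.7 CPM in the controls and 35.7, 49.6, 36.8 and 30.0 in KO (0.48, SE 0.29). Together they form H2-DM, which removes the invariant chain peptide, and both followed the pattern of the classical chains, with KO replicate 2 highest and control replicate 1 lowest.
H2-Oa and H2-Ob, whose product restrains H2-DM and is known from B cells, followed another. H2-Ob had 1.11, 1.87, 1.51 and 1.75 CPM in the controls and 1.68, 1.71, 3.68 and 2.46 in KO (0.60, SE 0.31). H2-Oa had 4 to 13 counts in the controls and 5 to 32 in KO (0.65, SE 0.66). Both were highest in KO replicate 3, as were H2-Eb2 (3 to 17 counts against 11 to 28; 0.46, SE 0.52) and H2-DMb2 (7 to 31 against 28 to 40; 0.70, SE 0.41). H2-DMb1 and H2-DMb2 shared 13.7% and 12.9% of their windows with each other, so reads of H2-DMb1, at 15.8 FPKM, could reach H2-DMb2, at 0.607 FPKM, and H2-Oa lies wholly within the antisense gene BC051537.
Thus the 10 class II genes split by mouse: the 6 with over 10 CPM in every mouse (H2-Aa, H2-Ab1, H2-Eb1, H2-DMa, H2-DMb1 and Cd74) were all highest in KO replicate 2 and lowest in control replicate 1, and the 4 others were all highest in KO replicate 3. The threshold of 10 CPM marks how many reads a gene had and not its level per length. Over the 10, 5 had an unadjusted p under 0.05, all higher, against 5.33% of all genes, and the median log2 fold change was 0.73. The count was 4 with the replicate block (7.14% of all genes) and 3 in DESeq2 (6.1%).

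**Figure D2:**
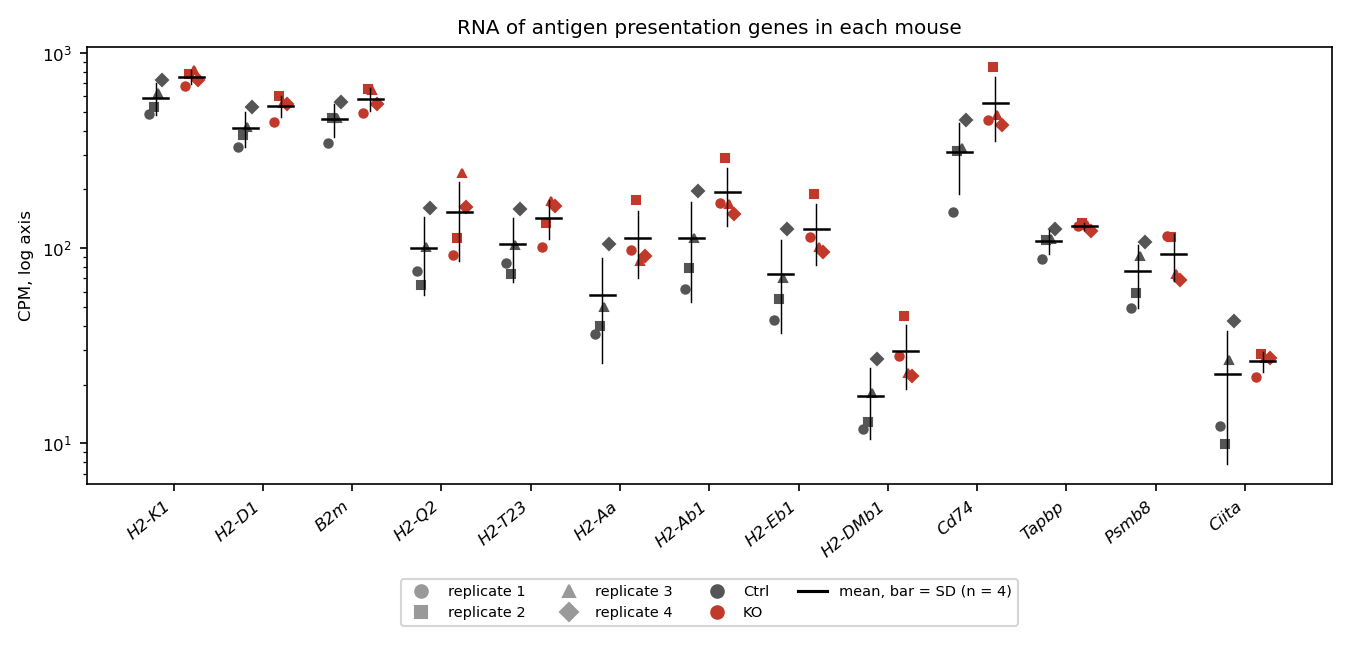
CPM on a log axis (vertical) are shown for 13 genes in each of the 4 control mice (grey) and 4 KO mice (red), with a marker shape per replicate, the mean as a line and the SD as a bar. KO replicate 2 is the top point for H2-Aa (177 CPM), H2-Ab1, H2-Eb1, H2-DMb1 and Cd74 (849 CPM), and control replicate 4 is the top control in all 13 genes.

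Class II was higher relative to class I in some KO mice and not in others. The class II chains summed to 111, 138, 185 and 325 FPKM in control replicates 1 to 4 and to 296, 492, 275 and 255 FPKM in KO replicates 1 to 4. The class I heavy chains summed to 442, 468, 574 and 713 FPKM in the controls and to 601, 727.5, 823 and 729 FPKM in KO. The ratio of the sums was 0.251, 0.295, 0.323 and 0.456 in the controls and 0.493, 0.676, 0.334 and 0.350 in KO. Only KO replicates 1 and 2 lay above the highest control, and the ranges overlapped. The medians of the fold changes differed by 0.375 on the log2 scale, higher for class II, where the same difference between medians varied by 0.29 (SD) between mice of 1 genotype. Leaving out KO replicate 2 gave 0.21, and leaving out KO replicate 4 gave 0.58, the range over single mice left out.

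Compared within the pairs of mice that share a number, the difference was not the same in all. The median difference of log2(CPM + 0.5) over the 10 class II genes was 1.16 in pair 1, 1.34 in pair 2, 0.68 in pair 3 and -0.25 in pair 4. Over the 13 class I heavy chains it was 0.34, 0.57, 0.29 and 0.010. The 6 class II genes with over 10 CPM were higher in the KO mouse in all of the first 3 pairs and lower in all of the last, as for H2-Aa with 1.42, 2.13, 0.78 and -0.21. H2-K1 had 0.49, 0.57, 0.40 and 0.0035. The difference between pairs was not tested. In pair 4 the control was the mouse with the highest class II of the 4 controls, and only 10 of the 36 members were higher in the KO mouse there, against 36, 32 and 26 in pairs 1, 2 and 3. Over all 16109 genes the median difference was within 0.011 of 0 in each pair.

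**Figure D3:**
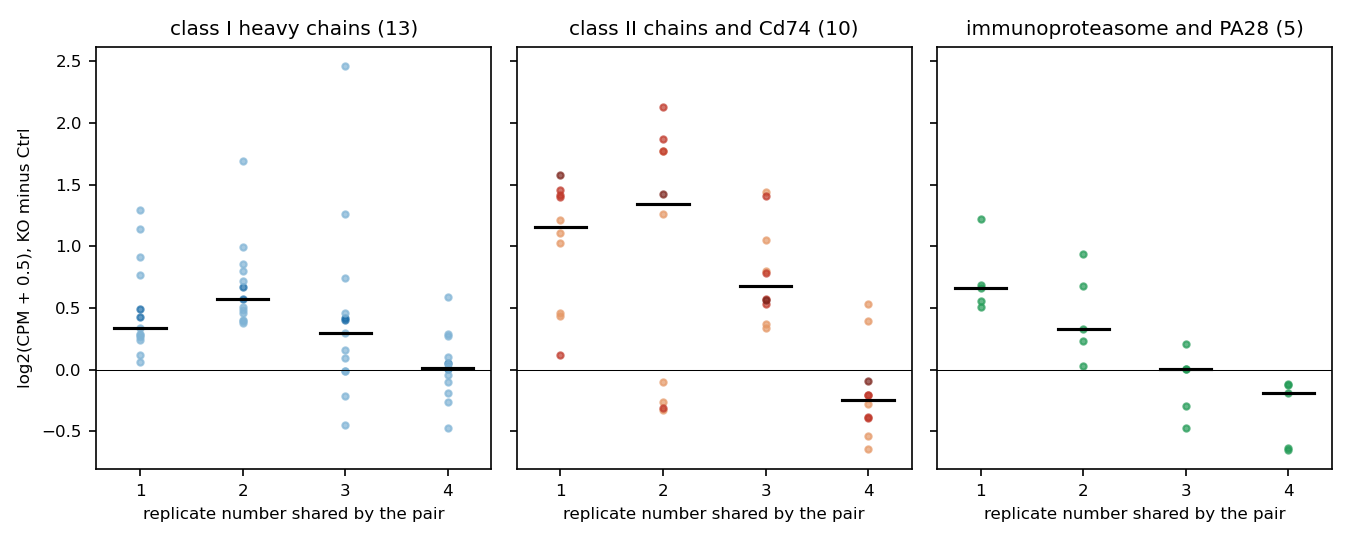
The difference of log2(CPM + 0.5), KO minus Ctrl (vertical), is shown within each pair of mice sharing a replicate number (horizontal), with 1 point per gene and a line at the median. In the middle panel, red points are classical chains, orange H2-DM and H2-DO chains and dark red Cd74. The class II medians are 1.16, 1.34, 0.68 and -0.25, and those of the 5 immunoproteasome and PA28 genes are 0.66, 0.33, 0.00084 and -0.19.

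The genes of peptide supply had KO values that overlapped those of the controls. Psmb8, a catalytic subunit that replaces its constitutive counterpart in the immunoproteasome, had 49.2, 59.2, 91.1 and 108 CPM in the controls and 115, 114, 74.1 and 68.6 in KO. Psmb9 had 69.3, 71.1, 99.5 and 112 CPM in the controls and 109.9, 114, 71.3 and 72.2 in KO. In both genes KO replicates 1 and 2 stood with control replicate 4, and KO replicates 3 and 4 stood between the controls. Their log2 fold changes were 0.27 (SE 0.27) and 0.061 (SE 0.21), and the third subunit, Psmb10, had 0.22 (SE 0.12).
The PA28 activator genes Psme1 and Psme2 had 0.11 (SE 0.11) and 0.19 (SE 0.11). Psme2 shared 44.5% of its windows with Psme2b and is uncertain. All 5 genes were lowest in control replicate 1. An unadjusted p under 0.05 was found for 0 of the 5, against 5.33% of all genes as higher and 3.05% as lower. Set against the constitutive subunits Psmb5, Psmb6 and Psmb7, the immunoproteasome genes stood at 0.933, 0.713, 1.05 and 1.25 FPKM per FPKM in the controls and 1.10, 1.04, 1.06 and 1.07 in KO, within the range of the controls.

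Tapbp (tapasin), which holds class I molecules at the transporter, had 87.9, 110.4, 111 and 126 CPM in the controls and 131, 135, 131.5 and 122 in KO, and 3 KO mice exceeded the highest control. Its log2 fold change of 0.25 (SE 0.10) came with an unadjusted p under 0.05, the only one among the 5 genes of transport, loading and trimming. Among all genes tested 5.33% passed that threshold as higher and 3.05% as lower. Tapbp overlaps Zbtb22 on the same strand over 3422 of its 13394 bases, and how reads there were assigned is not given in the sources used here. Tap1 had 54.1, 46.2, 95.2 and 116 CPM in the controls and 98.8, 95.7, 84.4 and 93.8 in KO (0.26, SE 0.26). All 4 KO mice lay below control replicate 4 and above control replicates 1 and 2. Tap2, the other subunit of the transporter (0.23, SE 0.19), Tapbpl, a second peptide editor (0.18, SE 0.14), and Erap1, which trims peptides in the endoplasmic reticulum (0.045, SE 0.095) each had at most 1 KO mouse above the highest control. Tapbpl lies wholly within the span of Vamp1 on the opposite strand.

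The transactivators varied between mice. Ciita, the master regulator of class II genes, had 12.2, 9.90, 26.8 and 42.3 CPM in the controls and 21.8, 28.7, 27.4 and 27.3 in KO. Nlrc5, its counterpart for class I genes, had 5.73, 2.99, 16.0 and 24.0 CPM in the controls and 15.8, 14.2, 12.4 and 16.2 in KO. For both, the 4 KO mice lay inside the range of the controls, and the log2 fold changes of 0.20 (SE 0.40) and 0.26 (SE 0.52) were smaller than their errors. Both were slightly negative without control replicate 2 (-0.045 and -0.059), and with the replicate block they were 0.42 for Ciita and 0.63 for Nlrc5.
The classical class II chains (H2-Aa, H2-Ab1 and H2-Eb1) summed to 72.9, 112, 55.2 and 63.5 FPKM per FPKM of Ciita in the controls and 111, 143, 81.9 and 77.2 in KO. KO replicate 2, with the highest class II, thus had 143 against a highest control of 112, while its Ciita was below that of control replicate 4.

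**Figure D4:**
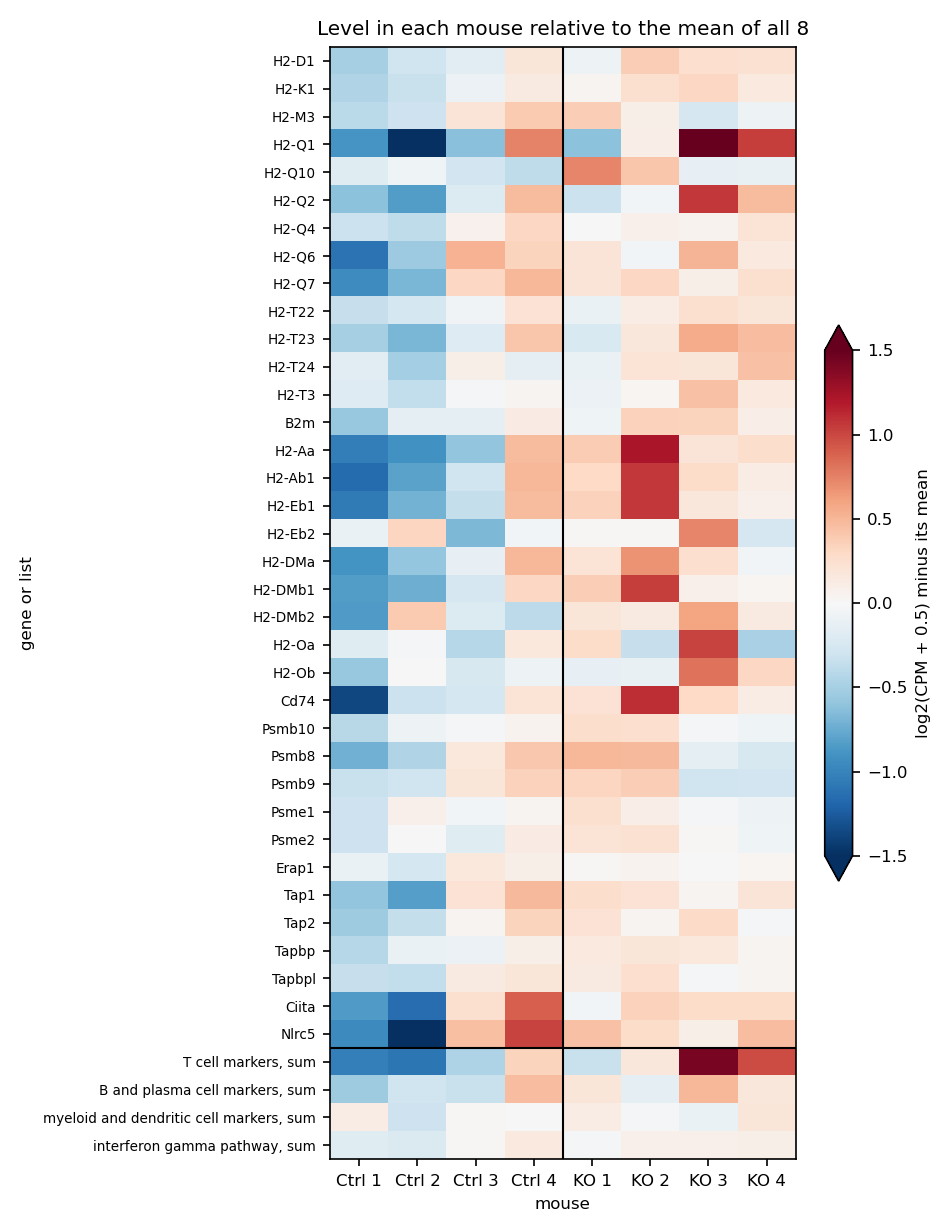
Each row is a gene, or the sum of a marker list in the last 4 rows, and each column a mouse; colour gives log2(CPM + 0.5) minus the mean over the 8 mice, with values beyond 1.5 drawn in the end colours. H2-Aa, H2-Ab1, H2-Eb1, H2-DMb1 and Cd74 are darkest red in KO replicate 2, while H2-Q1, H2-Q2, H2-Oa and H2-Ob share KO replicate 3 with the T cell markers (151 CPM).

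Markers of immune cells moved with some members. The 14 T cell markers summed to 27.4, 26.3, 40.6 and 70.7 CPM in the controls and 44.6, 63.3, 151 and 111 in KO, and 8 of the 13 tested had an unadjusted p under 0.05, all higher in KO, against 5.33% of all genes. Cd3e was 0.917 ± 0.650 CPM in the controls and 2.82 ± 1.82 in KO (SD, n = 4 each). KO replicate 3 was highest for this sum as it was for H2-Q1, H2-Q2, H2-T3, H2-T23, H2-Oa and H2-Ob, but KO replicate 2, highest for the 6 class II genes with over 10 CPM, had less than KO replicates 3 and 4. The sum of the 12 epithelial markers was also highest in KO replicate 3 (16320 CPM). So were Krt8, Krt19, Krt20, Vil1, Cldn3 and Cldn7 among them, whereas Epcam, Cdh1, Krt18, Elf3, Lgr5 and Olfm4 were highest in other mice. Krt20 had 116, 143, 131 and 338 CPM in the controls and 212, 374, 542 and 379 in KO.
The 12 B and plasma cell markers summed to 40.7 to 81.3 CPM in the controls and 53.4 to 83.0 in KO, with 1 of 12 under the unadjusted threshold (Pax5, higher). Of these 12, 11 had a positive log2 fold change, with a median of 0.62, while the sum was carried by the plasma cell genes Igkc (17.6 to 41.9 CPM over the 8 mice) and Jchain (7.05 to 19.9 CPM). The 18 myeloid and dendritic cell markers summed to 33.2 to 44.5 CPM in the controls and 38.5 to 46.8 in KO, with 0 of 12 tested under the threshold (edgeR, lowest adjusted p = 0.707). KO replicate 2 had 40.4 CPM of this sum, below KO replicates 1 and 4 and above KO replicate 3. Among the myeloid markers, Itgam (integrin alpha M) was at 12.96 CPM in KO replicate 2 and at 6.13 to 7.68 CPM in the other KO mice. The macrophage markers Csf1r, C1qa, C1qb and C1qc were lowest in KO replicate 2 of the 4 KO mice, at 2.33, 1.36, 0.892 and 1.09 CPM. Ifi30, the lysosomal thiol reductase of class II processing, was at 6.59 CPM in KO replicate 2 and at 0.714 to 0.909 CPM in the other KO mice. The 13 stroma and endothelium markers summed to 9.86 to 19.6 CPM in the controls and 12.1 to 22.9 in KO, with 0 of 7 under the threshold (lowest adjusted p = 0.618 in edgeR). Of the 12 epithelial markers, 5 were higher and 2 lower at the unadjusted threshold, which 5.33% and 3.05% of all genes passed, with Krt20, a marker of differentiated cells, at 182 ± 105 CPM in the controls and 377 ± 135 in KO (SD, n = 4 each) and Olfm4, a stem cell marker, at 3895 ± 408 and 3070.0 ± 364. The part of these markers in the MHC values was not tested.

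The interferon gamma pathway was followed in 26 genes, of which 24 were tested. Of these, 1 had an unadjusted p under 0.05, which 5.33% of all genes passed as higher and 3.05% as lower. This was Cxcl10, a chemokine for T cells, at 0.407 ± 0.227 CPM in the controls and 1.12 ± 0.278 in KO (SD, n = 4 each, log2 fold change 1.44, SE 0.45). Of the 24, 22 had a positive log2 fold change, as had 7425 of the 16109 genes tested, and their median was 0.22. Socs1, which restrains the pathway, had a log2 fold change of 0.59 (SE 0.28), and the receptor chains Ifngr1 and Ifngr2 had 0.17 (SE 0.093) and 0.076 (SE 0.081). Irf1, which switches on class I and transactivator genes, stood at 158.5 ± 26.5 CPM in the controls and 164 ± 17.6 in KO (0.051, SE 0.13). The sum of the list was 782 to 1013 CPM in the controls and 900.3 to 968 in KO, so that the KO mice lay inside the range of the controls, as they did for Ciita and Nlrc5. Genes with many reads, such as Irf1 and Ifngr1, carried this sum, and a scarce gene such as Cxcl10 added little to it. The sum therefore does not show how the scarcer genes moved.

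The factors that bind the promoters of MHC genes had fold changes near 0 or below it. Of 9 genes tested, 1 had an unadjusted p under 0.05, which 5.33% of all genes passed as higher and 3.05% as lower. This was Nfyb, a subunit of the Y box factor. It was lower in KO, at 35.96 ± 0.926 CPM against 43.0 ± 2.13 in the controls (SD, n = 4 each, log2 fold change -0.26, SE 0.066). Creb1 had -0.20 (SE 0.11), Nfkb1 -0.082 (SE 0.061), Rfxap -0.077 (SE 0.098), Rela -0.027 (SE 0.083) and Nfyc 0.013 (SE 0.065), and the median over the 9 was -0.082.
Of the 16 class I partners tested, chaperones and peptidases among them, 0 had an unadjusted p under 0.05 (edgeR, lowest adjusted p = 0.680). Over all genes 5.33% were higher and 3.05% lower at that threshold. The median log2 fold change of the 16 was 0.011. The abundant chaperones Calr, Pdia3 and Hspa5 had -0.0017 (SE 0.17), 0.069 (SE 0.15) and -0.11 (SE 0.13), and Psme4, Psmb7 and Psme3, the members with the smallest p, had 0.12 (SE 0.073), 0.16 (SE 0.12) and -0.091 (SE 0.069).
Of the 11 class II partners tested, 1 was higher and 1 lower at the unadjusted threshold, which 5.33% and 3.05% of all genes passed. Their median was 0.14. Ctss, the protease that degrades the invariant chain, stood at 49.9 ± 8.73 CPM in the controls and 64.5 ± 7.88 in KO (SD, n = 4 each; 0.37, SE 0.13). Mfge8, which bridges dying cells to phagocytes, was lower (-0.35, SE 0.11), and the lysosomal proteases Ctsd and Ctsb had 0.18 (SE 0.081) and 0.13 (SE 0.066).

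In the genome, 39 of the 48 members lie on chromosome 17, and the 9 others are Cd74, B2m, Psmb10, Psme1, Psme2, Erap1, Nlrc5, Ciita and Tapbpl. The median log2 fold change was 0.40 over the 27 members on chromosome 17 that passed and 0.20 over the 9 elsewhere. Psmb9, Tap1, Psmb8 and Tap2, which lie between H2-DMb1 and H2-Ob, had 0.061 to 0.27 with an SE of 0.19 to 0.27. H2-DMb1 and H2-Ob on either side had 0.76 and 0.60, each with an SE of 0.31, and the differences between neighbours were not tested. Psmb9 and Tap1 overlap by 212 bases on opposite strands.

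**Figure D5:**
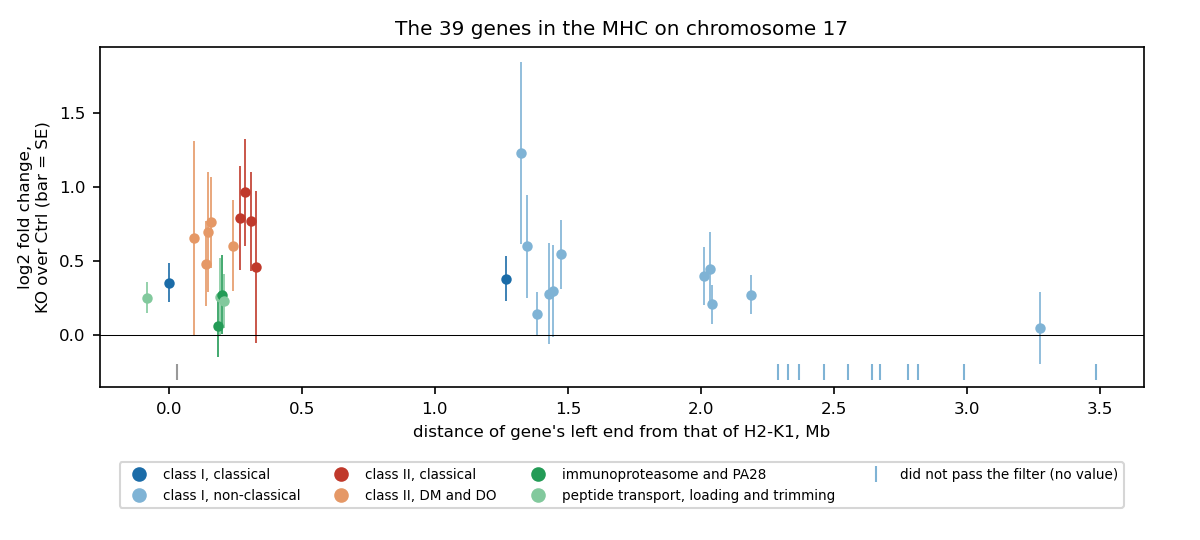
The log2 fold change of KO over Ctrl with its SE (vertical) is plotted against distance from H2-K1 in megabases (horizontal) for the 39 genes on chromosome 17, coloured by class, and ticks under the line mark genes that did not pass the filter. The 4 processing genes from Psmb9 to Tap2 have values of 0.061 to 0.27 between H2-DMb1 at 0.76 and H2-Ob at 0.60, and the highest value, 1.23, belongs to H2-Q1.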

How the data were processed

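Crypt RNA of 4 control and 4 KO mice was analysed, grouped by the labels. Raw counts of reads on each gene were deposited by the authors, made with HISAT2 2.0.5 and featureCounts 1.5.0-p3 per the submitters' processing notes, and FPKM values, which divide the same counts by gene length and 1 denominator per mouse. The strand setting of the counting is not given in the sources used here. The authors' own fold changes and p-values, and 2 further deposited files of such results, were not used.

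The counts of all 8 mice were fitted with edgeR 4.0.16 (R 4.3.3) with genotype as the only term (filterByExpr, minimum count 10; TMM; quasi-likelihood test; Benjamini-Hochberg adjustment over 16109 genes; threshold 0.05), after a check on simulated data. The SE of a log2 fold change is its size divided by the square root of F. Shared sequence is the share of 100-base windows of the longest coding transcript found in other genes of GENCODE M21. The members and gene lists were chosen with earlier results of these data known. Every member is named. From the 4 pathway lists, the 3 genes with the smallest p and the 3 with the highest mean FPKM are named. Other list genes named (Cd3e, Pax5, Igkc, Jchain, Itgam, Csf1r, C1qa, C1qb, C1qc, Ifi30 and the epithelial markers) were picked after their values were seen. P-values measure the spread between these mice.

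Same-numbered mice deviated together from their genotype means (correlation 0.134, 0.552, 0.136 and 0.321 over all genes; 0.0982, 0.54, 0.0896 and 0.285 over autosomal genes), and KO replicate 3 matched control replicate 4 best. As every correlation over all genes was above 0.1, same-numbered mice were compared as pairs, and the number was the block of an alternative fit. Over autosomal genes pairs 1 and 3 fell below 0.1. The main fit, with its SE and p-values, left the pairing out. No source says that a number marks a litter. No libraries within a genotype agreed within sampling noise (23.4 to 86.3 chi-square units for each degree of freedom). Depth was 20324184 to 30654105 counts per mouse. Alternatives were DESeq2 1.42.0, RLE and upper-quartile factors, no filter, limma 3.58.1 on log2(FPKM + 1) and log2(FPKM + 0.1) for genes with a mean FPKM of at least 0.1, the replicate block, leaving out each mouse, and, chosen after seeing the data, leaving out both mice of replicate number 2. Promoters are RefSeq's. Python 3.11.15 and matplotlib 3.10.9 were used for tables and plots.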

Additional observations from a re-analysis of the deposited data

Results flagged for a closer look

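In 6 of 102 groups of 4 mice, 1 mouse lay far from the 3 others by Dixon's ratio (its gap to the nearest mouse over the whole range, above the 95% critical value); chance alone gives about 5.1 of 102.

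KO replicate 2 stood above the other KO mice for Cd74 (849 CPM against 425.5 to 483, ratio 0.864), H2-Ab1 (290.3 against 150.2 to 170.5, ratio 0.855) and H2-Aa (177 against 86.1 to 97.9, ratio 0.87). KO replicate 3 stood above the others for H2-DMb2 (1.73 CPM against 1.12 to 1.18, ratio 0.917). Among sums of lists, the MHC promoter factors were lowest in control replicate 4 (382 CPM against 400.4 to 403.5, ratio 0.859), and the interferon gamma pathway was lowest among KO mice in KO replicate 1 (900.3 CPM against 962 to 968, ratio 0.905).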

How the results depend on the processing

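The count of members with an unadjusted p under 0.05 moved from 10 to between 1 and 19 when single mice were left out, and to 2 without both mice of replicate number 2 (H2-DMb2 and H2-Ob). Under the 7 other settings it was 7 to 14, with 14 under the replicate block. The adjusted count was 0 under every setting run. The class I median log2 fold change lay between 0.24 and 0.47 and the class II median between 0.54 and 0.98 when single mice were left out. Without both mice of replicate number 2 they were 0.26 and 0.54.

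Of 576 values of single members under the 16 alternatives, 559 kept their sign and their side of the adjusted threshold, and 17, in 6 members, had the other sign; the cause was not tested. Leaving out single mice, Ciita ranged from -0.045 to 0.69, Nlrc5 from -0.059 to 0.83, Psmb9 from -0.055 to 0.20, H2-M3 from -0.087 to 0.22, Erap1 from -0.030 to 0.11 and H2-Oa from -0.15 to 0.98. Without both mice of replicate number 2, Ciita was -0.089, Nlrc5 -0.041, Psmb9 -0.14, H2-M3 -0.066 and Erap1 -0.034. H2-Oa, H2-Eb2 and H2-DMb2 had 3 to 40 counts per mouse, so their values carry a large counting error.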

Other observations

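Beside the 34 protein-coding genes, 11 genes named H2- have another biotype. H2-Bl, a polymorphic pseudogene, had 149, 100, 180 and 287 counts in control replicates 1 to 4 and 176, 240, 457 and 415 in KO replicates 1 to 4 (log2 fold change 0.63, SE 0.35). H2-T-ps had 18 to 49 counts in the controls and 39 to 82 in KO (0.81, SE 0.32), with KO replicate 3 highest as for H2-Q1 and H2-T3. H2-K2, H2-Q5 and H2-T10 had 57 to 130, 19 to 76 and 61 to 100 counts in the controls and 91 to 171, 39 to 102 and 94 to 117 in KO (0.21, SE 0.26; 0.45, SE 0.45; 0.18, SE 0.21). H2-Q3 had 3 to 7 and 3 to 24 counts, and the other 5 had at most 5 counts in any mouse.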
